A study of Mus musculus with 14 samples.

Results

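The carboxylesterases described here are 6 members of the Ces2 subfamily (Ces2a, Ces2b, Ces2c, Ces2e, Ces2f and Ces2g) and 4 members of the Ces1 subfamily (Ces1d, Ces1e, Ces1f and Ces1g). They were taken by name, as 10 of the 54532 gene rows in a count table of ileum RNA, and 9 of the 10 had enough counts to be among the 13846 genes tested. Because they were picked with the difference between the genotypes already known, that difference is given for them as a description and without a p-value. The table holds 14 libraries, 1 per mouse, from 7 WT and 7 IKO mice. Both genotypes carried floxed NCoR1 alleles (NCoR1 flox/flox), which encode a corepressor of nuclear receptors. IKO mice also carried a Cre recombinase under the villin promoter, which removes NCoR1 in intestinal epithelial cells and leaves it in the other cells of the gut wall. All were males that stayed on a high-fat diet (HFD, 60% of energy from fat) for 15 weeks. The methods of the study put its start at 7 to 8 weeks of age. A figure legend of the study instead describes older mice and chow feeding before the switch.

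Carboxylesterases are serine hydrolases of the endoplasmic reticulum that split ester and amide bonds in drugs, esterified vitamins and lipids. The Ces1 enzymes are best known from the liver, where several hydrolyze stored triacylglycerol and cholesteryl ester, whereas Ces2 enzymes are typical of the small intestine and have been described as lipases of diacylglycerol and monoacylglycerol. Mice have many more copies than humans because both subfamilies were expanded by tandem duplication on chromosome 8, and some of the copies respond to the xenobiotic receptors PXR (Nr1i2) and CAR (Nr1i3).

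The libraries held 14749669 to 21557468 counts on genes. Ncor1 itself averaged 134.7 CPM (SD 31.3, n = 7) across WT libraries and 50.6 CPM (SD 11.0, n = 7) across IKO libraries, and the 2 ranges did not overlap. CPM are counts scaled to a common library size with TMM factors. The log2 fold change was -1.41 (SE 0.18, adjusted p = 0.00051, from the quasi-likelihood test of edgeR, adjusted by Benjamini-Hochberg, as for every adjusted p below unless another test is named). Counts cover the whole gene and do not isolate the deleted exons. Libraries WT 3 and IKO 4 stood apart, with 23.9% and 50.3% of their counts on mitochondrially encoded genes against 3.49% to 10.3% in the other 12. In WT 4, 6 smooth muscle markers summed to 10855 CPM, whereas the highest sum in an IKO mouse was 796 CPM. The labels call the cells intestinal epithelial cells, and the 10 enterocyte markers were abundant, at 18586 to 95545 CPM in WT and 43370 to 77834 CPM in IKO mice. In such bulk RNA, fewer cells of a type and less RNA per cell cannot be told apart.

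The 4 Ces1 members lie side by side on the minus strand within 171.2 kb (chr8:93166068-93337308), in the order Ces1d, Ces1e, Ces1f and Ces1g. The 6 Ces2 members lie on the plus strand within 235.5 kb of the same chromosome (chr8:104734003-104969537), in the order Ces2a, Ces2b, Ces2c, Ces2e, Ces2f and Ces2g. All coordinates are those of the deposited table, which are identical in a GENCODE annotation of GRCm38 (mm10) for all 10 genes. Each main protein-coding transcript has 12 to 14 exons and a coding length of 1668 to 1695 bases. RefSeq promoter windows (build GRCm38.p6, 250 bases before to 50 after the start) were matched for 7 of the 10. The 120 bases before the start are shown for the 5 Ces2 members among them, because Ces2 members next to each other differed in how far they departed from WT. Capitals mark a 9-base word, ACTTTGCCC, which is the longest that at least 4 of these 5 windows hold. They lie on the plus strand at chr8:104733883-104734002 (Ces2a), chr8:104846948-104847067 (Ces2c), chr8:104926140-104926259 (Ces2e), chr8:104947236-104947355 (Ces2f) and chr8:104961598-104961717 (Ces2g).
Ces2a: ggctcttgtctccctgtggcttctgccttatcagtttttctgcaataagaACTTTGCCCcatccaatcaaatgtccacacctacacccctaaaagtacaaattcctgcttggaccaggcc
Ces2c: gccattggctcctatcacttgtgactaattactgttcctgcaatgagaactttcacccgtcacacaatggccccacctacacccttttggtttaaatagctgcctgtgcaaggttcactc
Ces2e: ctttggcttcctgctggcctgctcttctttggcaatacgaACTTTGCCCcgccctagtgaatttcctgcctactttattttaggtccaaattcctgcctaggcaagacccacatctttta
Ces2f: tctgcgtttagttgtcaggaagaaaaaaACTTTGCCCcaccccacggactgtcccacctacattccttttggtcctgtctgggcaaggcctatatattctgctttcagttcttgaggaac
Ces2g: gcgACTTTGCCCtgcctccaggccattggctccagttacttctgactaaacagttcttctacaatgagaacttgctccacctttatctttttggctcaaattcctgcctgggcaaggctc

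The word lies at -70 to -62 in Ces2a, at -80 to -72 in Ces2e, at -92 to -84 in Ces2f and at -117 to -109 in Ces2g, counted back from -1 at the base before the start, and it is not in the Ces2c window. It was chosen after the sequences were seen, and 86 of all 32851 promoter windows of 300 bases (0.262%) hold it on either strand. The longest runs that pairs of these windows share were 7 to 13 bases long. Of the motifs searched for on both strands, AGGTCA, the core hexamer of many nuclear receptor elements, was in the Ces2a window at -226 to -221, and it is in 16.3% of all windows. None of the 7 member windows held an exact copy of AGTTCA (13.99% of all windows), the HNF4 motif CAAAGTCCA (0.475%) or the HNF1 motif (0.00913%). Nor did any hold AGGTCA or AGTTCA as an exact direct repeat with a spacer of 1, 3, 4 or 5 bases (0.161%). Inexact copies were not searched for, so these windows may still hold elements that resemble such motifs. Whether the shared word ACTTTGCCC, read on either strand, resembles part of such an element was not tested. TATAAA, the TATA box, was found in Ces1g alone among the 7, on the minus strand of that window at -26 to -21, and is in 13.6% of all windows.

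The 2 subfamilies arose by duplication, so the sequence that each member shares with any other gene was measured on the annotated transcripts. Reads were 150 bases long. Of the distinct 150-base windows of each gene's transcripts, 2.97% of those of Ces2a were also in the pseudogene Gm7208, and 2.84% of those of Ces2c were also in Ces2d-ps, a pseudogene beside it. Some of these Ces2c windows, 1.35% of all those of Ces2c, were also in the pseudogene Gm8798. For the other 8 members, 0 windows of that length were shared with any other gene. Windows of 50 bases were shared more widely with any other gene, with 36.1% for Ces2c, 17.3% for Ces2a, 9.42% for Ces2b and 0.903% to 3.30% for the other 7. Of the 811 shared windows of Ces2c, 734 were in Ces2d-ps and at most 99 in any 1 other member. Of the 425 of Ces2a, 399 were in Gm7208 and at most 24 in any 1 other member. Of the 321 of Ces2b, 99 were in Ces2c, and others were in genes outside the family. The longest identical run between any pair of members of 1 subfamily is shown because it is the stretch where 2 of the members are hardest to tell apart. It spans exons 8 and 9 of both Ces2b (chr8:104836558-104836867) and Ces2c (chr8:104852362-104852677), lies within the coding sequence of each and is 99 bases long.
Ces2b and Ces2c: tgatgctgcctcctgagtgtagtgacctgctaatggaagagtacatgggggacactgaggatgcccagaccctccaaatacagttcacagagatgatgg
The run is shorter than 1 read. How reads with more than 1 match were counted is not given in the sources used here, so the levels of Ces2a and Ces2c, and of the low Ces2b next to the abundant Ces2c, carry that uncertainty.

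**Figure D1:**
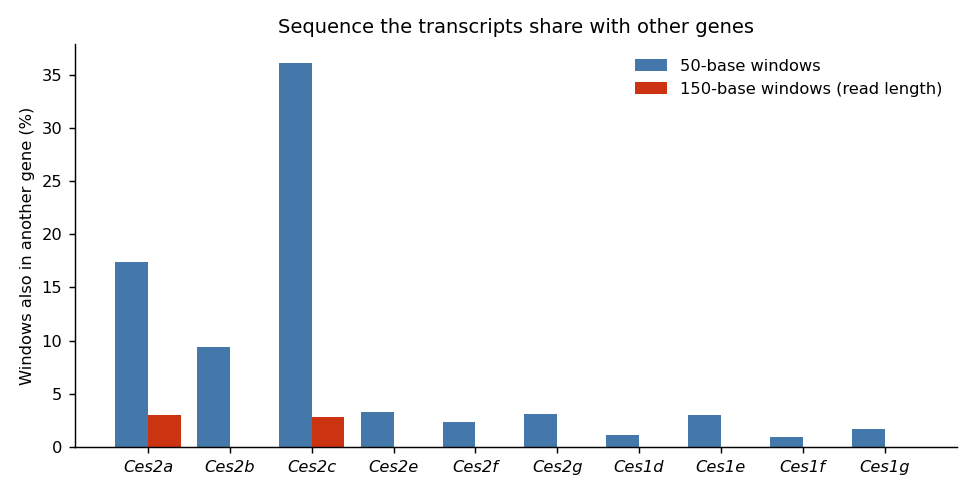
Share of each member's distinct transcript windows (y axis, percent) that also occur in a transcript of another gene on the same strand, for windows of 50 bases (blue) and of 150 bases, the read length (red). At 50 bases Ces2c reached 36.1% and Ces2a 17.3%, whereas at 150 bases both were under 3% and the other 8 members were at 0.

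In WT mice the members differed widely in level. Levels of different genes are compared as FPKM (fragments per kilobase and library size), which allow for gene length, and neighbours in the order were compared within mice by a two-sided exact sign-flip permutation test of log2(FPKM + 0.1), adjusted over the 9 neighbouring pairs. Ces2e was highest at 356 ± 122 FPKM (SD, n = 7), followed by Ces2a at 104 ± 38.1 FPKM and Ces2c at 79.3 ± 50.4 FPKM. Ces1f, also called triacylglycerol hydrolase 2, was the highest Ces1 member at 11.9 ± 7.57 FPKM. Below it came Ces1e (egasyn, which holds beta-glucuronidase in the endoplasmic reticulum) at 3.31 ± 1.15, Ces1d (the triacylglycerol hydrolase of liver and fat) at 2.33 ± 2.32, Ces2b at 1.99 ± 0.683 and Ces2g at 1.25 ± 0.518 FPKM. Ces1g followed at 0.658 ± 0.211 FPKM, and Ces2f was last at 0.0619 ± 0.0347 FPKM, from 45 counts over all 7 WT libraries.

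Of the 9 neighbouring pairs in WT mice, 4 differed beyond their spread, each in 7 of 7 mice at p = 0.0156, the smallest this test can give with 7 mice (exact permutation test, adjusted p = 0.0352). They were Ces2e over Ces2a, by 1.78 ± 0.839 (SD, n = 7) on the log2(FPKM + 0.1) scale, Ces2c over Ces1f by 2.76 ± 1.03, Ces2g over Ces1g by 0.79 ± 0.597 and Ces1g over Ces2f by 2.21 ± 0.427. Ces2a and Ces2c did not differ beyond their spread (0.54 ± 1.13, higher for Ces2a in 4 of 7 mice, exact permutation test, adjusted p = 0.281), nor did the pairs between Ces1f and Ces2g (adjusted p of 0.0563 or more, exact permutation test). Ces1d stood above Ces2b by its mean only, as it was lower in 5 of 7 mice, and the order of these 2 turned when WT 2 or WT 4 was left out. With any 1 WT mouse left out, 0 of the 9 pairs passed. The smallest p this test can give is larger with fewer mice. Pairs then pass the adjustment only if many of them reach it, so nothing is read from this loss.

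**Figure D2:**
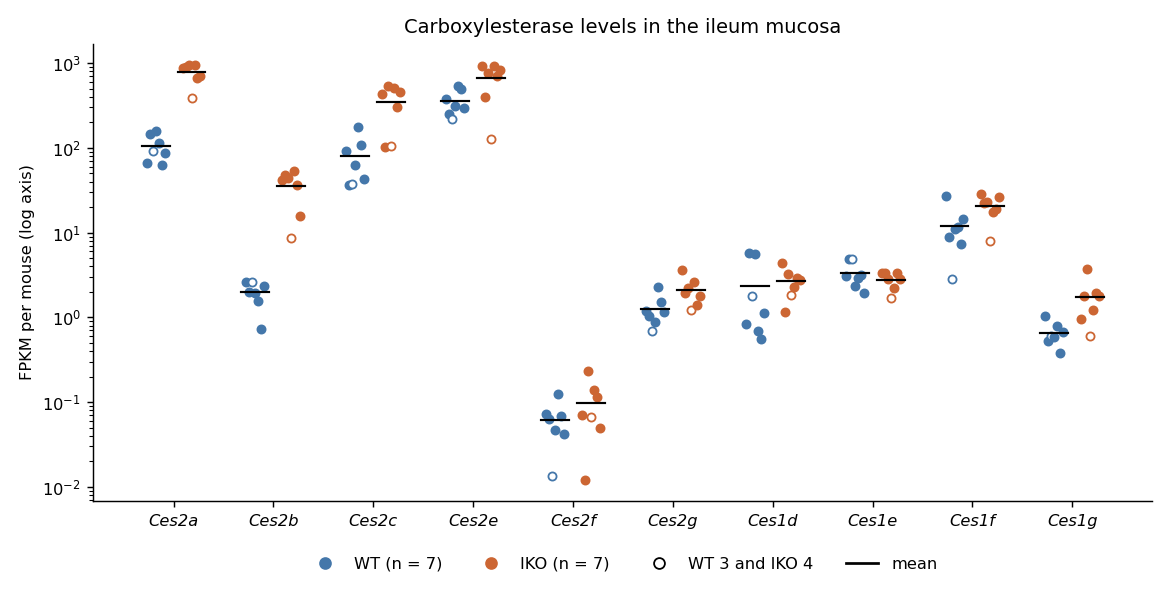
FPKM of the 10 carboxylesterases (log axis), with 1 point per mouse for WT (blue) and IKO (orange) and the mean as a black line. Open points are WT 3 and IKO 4, the libraries with the most mitochondrial counts. The genotypes do not overlap for Ces2a and Ces2b, and IKO 4 is the lowest IKO mouse for both.

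Ces2a and Ces2b departed furthest from WT. Ces2a (chr8:104734003-104741634) ranged from 62.1 FPKM in WT 6 to 160 FPKM in WT 4, with a median of 92.7 FPKM. In IKO mice it ranged from 387 FPKM in IKO 4 to 958 FPKM in IKO 5, with a median of 877 FPKM. The lowest IKO mouse was thus above the highest WT mouse. Its mean was 251.5 ± 92.4 CPM (SD, n = 7) for WT and 1836 ± 490 CPM (SD, n = 7) for IKO. The log2 fold change was 2.87 (SE 0.28, 7.30-fold), with a range of 2.77 to 3.005 when each mouse was left out in turn.

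Ces2b (chr8:104831572-104840093) was scarce in WT mice, from 0.722 FPKM in WT 6 to 2.65 FPKM in WT 1 and WT 3, with a median of 2.01 FPKM. In IKO mice its lowest value was 8.74 FPKM in IKO 4 and its highest 53.8 FPKM in IKO 5, with a median of 41.9 FPKM. The groups did not overlap. IKO 7 (15.8 FPKM) was also far below the other 5 IKO mice, which had 36.9 to 53.8 FPKM. The difference was 4.12 on the log2 scale (SE 0.41, 17.4-fold, from 6.94 ± 2.42 to 121 ± 57.4 CPM, SD, n = 7 each). It was the 8th highest of the 13846 genes tested in order of signed log2 fold change, which leaves out the size of falls. It was 3.98 to 4.30 with 1 mouse left out.

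Ces2c (chr8:104847068-104854483), which hydrolyzes triacylglycerol and diacylglycerol in the small intestine, had a lowest, median and highest value of 36.9, 62.9 and 175 FPKM in WT and of 102, 428 and 540 FPKM in IKO mice. The groups overlapped, because IKO 2 (102 FPKM) and IKO 4 (106 FPKM) fell below WT 5 and WT 6, while the other 5 IKO mice were above every WT mouse. Its log2 fold change was 2.11 (SE 0.46, 4.31-fold), from 186 ± 117 to 801 ± 420 CPM (SD, n = 7 each).

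Ces2e (chr8:104926260-104934672), the most abundant copy in WT mice, had a lowest, median and highest value of 220, 313 and 537 FPKM in WT and of 126, 765 and 934 FPKM in IKO mice. IKO 4 was below all WT mice and IKO 2 (397 FPKM) lay among them, while the other 5 IKO mice were above the WT range. The log2 fold change was 0.88 (SE 0.36, 1.84-fold). It was not past the threshold of an adjusted p of 0.05 in the main fit, but it was without IKO 4, at 1.07, and without WT 3 and IKO 4 together, at 0.98.

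The last members of the Ces2 row were low. Ces2g (chr8:104961718-104969537) had a lowest, median and highest value of 0.696, 1.14 and 2.26 FPKM in WT and of 1.21, 1.93 and 3.59 FPKM in IKO mice, with a log2 fold change of 0.73 (SE 0.29) that was not past the threshold, except without WT 5, at 0.94. Ces2f (chr8:104947356-104960047) was not tested, with 45 counts over the WT and 58 over the IKO libraries, or 0.0133 to 0.126 and 0.0120 to 0.236 FPKM. Both groups of Ces2f overlapped widely.

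The Ces1 members had smaller differences. Ces1f (chr8:93256236-93279747) had a lowest, median and highest value of 2.81 (WT 3), 11.1 and 26.9 FPKM (WT 1) in WT and of 7.96 (IKO 4), 22.2 and 28.2 FPKM in IKO mice. WT 1 was above all IKO mice but 1, and 6 of 7 IKO mice were above the WT median. The log2 fold change of 0.77 (SE 0.37) was not past the threshold. Ces1g (chr8:93302369-93337308), a hydrolase of triacylglycerol and cholesteryl ester, was at 0.384, 0.603 and 1.04 FPKM in WT and 0.603, 1.76 and 3.77 FPKM in IKO mice. Here 5 of 7 IKO mice were above the WT range, and IKO 3 was far above the rest.

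The log2 fold change of Ces1g was 1.35 (SE 0.37, from 1.61 ± 0.514 to 4.10 ± 2.48 CPM, SD, n = 7 each) and past the threshold, on 237 counts over the WT and 493 over the IKO libraries. It fell to 1.01 without IKO 3. It was no longer past the threshold with any 1 of WT 3, WT 4, WT 6, WT 7, IKO 2, IKO 3, IKO 5 or IKO 7 left out, at 1.01 to 1.42, and was past it in 12 of the 25 alternative fits.

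Ces1d (chr8:93166068-93197838) overlapped fully between the genotypes. Its WT values were split, with 5.81 FPKM in WT 2 and 5.53 FPKM in WT 4 against 0.550 to 1.80 FPKM in the other 5, whereas the IKO mice lay between 1.14 and 4.34 FPKM. The log2 fold change was 0.15 (SE 0.53) and ranged from -0.018 to 0.56 with 1 mouse left out, turning sign without WT 1, WT 5, WT 6 or IKO 1. Ces1e (chr8:93201218-93229619) was 1.96 to 4.93 FPKM in WT and 1.67 to 3.36 FPKM in IKO mice, with a log2 fold change of -0.28 (SE 0.25), and 3 of 7 IKO mice were above the WT median.

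Altogether 4 of the 9 tested members (Ces2a, Ces2b, Ces2c and Ces1g) were past the threshold, all higher in IKO mice. Of all genes tested, 8.67% were past it, 4.38% as higher and 4.28% as lower in IKO mice. Ces2a and Ces2b also did not overlap between the groups, as was true of 1.83% of all tested genes in this direction and 3.1% in either. Since the members were chosen on this contrast, nothing is read from these shares. Ces2a, Ces2b and Ces2c were past the threshold in 25 of 25 alternative fits. Those fits reuse the same libraries, so this describes the processing and is no test of the members. Without the libraries WT 3, WT 4 and IKO 4 together, an alternative chosen after seeing the data, the log2 fold changes were 3.12 for Ces2a, 4.39 for Ces2b and 2.07 for Ces2c. The median log2 fold change of all tested genes was -0.09.

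**Figure D3:**
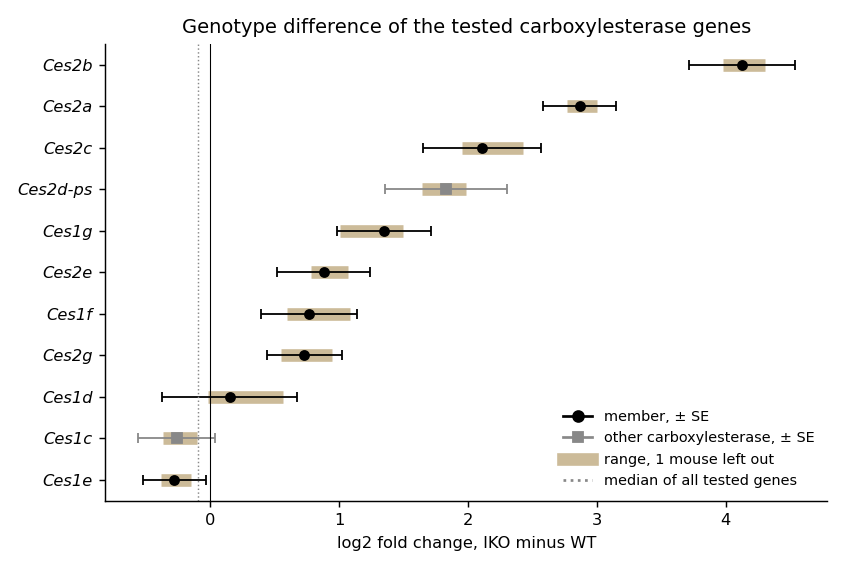
Log2 fold change (IKO minus WT) of the 11 carboxylesterase genes tested, with the SE as error bars, members as black circles and 2 other carboxylesterase genes as grey squares. The tan bars span the values with 1 mouse left out, and the dotted line is the median of all tested genes at -0.09. Ces2b, Ces2a and Ces2c lie furthest to the right, at 4.12, 2.87 and 2.11.

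The members of each subfamily were also summed, since their copies share sequence. Reads divided with genes outside the sum, or between copies of different length, still change a sum of FPKM. The Ces2 members summed to 543 ± 163 FPKM (SD, n = 7, range 354 to 830) in WT and 1837 ± 638 FPKM (SD, n = 7, range 630 to 2455) in IKO mice, a ratio of 3.39 (1.76 on the log2 scale, and 1.68 for summed CPM). IKO 4 had the only IKO sum within the WT range. The Ces1 sum was 18.2 ± 7.14 FPKM (SD, n = 7, range 10.1 to 31.8) in WT and 27.8 ± 8.35 FPKM (SD, n = 7, range 12.1 to 36.9) in IKO mice, a ratio of 1.53, with overlapping groups. The Ces2 sum was 17.1 to 58.5 times the Ces1 sum in WT mice (median 27.5) and 51.2 to 106 times in IKO mice (median 62.0).

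The makeup of the Ces2 sum also differed. Ces2e supplied 57.1% to 74.2% of it in WT mice (median 64.7%) and 20.1% to 41.3% in IKO mice (median 38.1%), without overlap. The Ces2a share was 9.26% to 33.7% in WT (median 20.2%) and 35.3% to 62.4% in IKO mice (median 39.0%), highest in IKO 2 and IKO 4. The Ces2b share did not overlap either, at 0.108% to 0.749% in WT and 0.784% to 3.29% in IKO mice. The Ces2c share overlapped, at 8.49% to 21.0% and 7.00% to 23.5%. Within the Ces1 sum, Ces1f supplied 27.7% to 84.5% in WT and 66.0% to 78.4% in IKO mice.

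**Figure D4:**
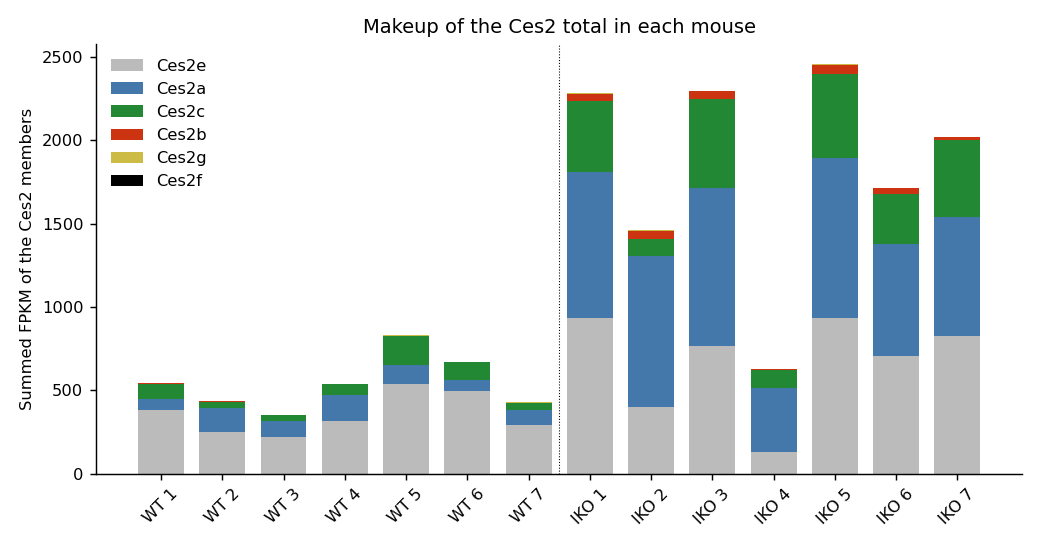
Summed FPKM of the 6 Ces2 members in each of the 14 mice (y axis, linear), stacked by member, with WT to the left and IKO to the right of the dotted line. Ces2e (grey) makes up most of each WT bar, whereas Ces2a (blue) fills a larger share of the IKO bars. The share of Ces2c (green) overlaps between the genotypes. The IKO 4 bar (630 FPKM) is within the WT range of 354 to 830 FPKM.

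The order of levels in IKO mice is given as a description and without a p-value, because the members were chosen with the genotype difference known. It began with Ces2a at 780 ± 207 FPKM (SD, n = 7) and Ces2e at 670 ± 301 FPKM. Ces2a was above Ces2e in 4 of 7 mice (by 0.40 ± 0.720 on the log2(FPKM + 0.1) scale). Both were followed by Ces2c at 349 ± 184 FPKM, lower than Ces2e in 7 of 7 mice (by 0.97 ± 0.553). Ces2b came next at 35.6 ± 16.9 FPKM, above Ces1f at 20.7 ± 6.78 FPKM in 6 of 7 mice, whereas Ces2b was at position 7 in WT mice. Ces1e, Ces1d, Ces2g and Ces1g lay between 2.79 and 1.72 FPKM, and neighbours among them followed this order in 3 to 5 of 7 mice. Ces2f was again last at 0.0984 ± 0.0734 FPKM.

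Mice of the same genotype also varied, and the copies did not vary as 1 block. Over the 14 mice, with log2 CPM centred within genotype, Ces2c and Ces2e went together (r = 0.86, and 0.95 over 12 mice without WT 3 and IKO 4). Ces2g went with both, at r = 0.70 with Ces2c and 0.71 with Ces2e (0.56 and 0.64 over those 12 mice). Ces2a had r = 0.14 with Ces2c and 0.38 with Ces2e, and these values were -0.23 and -0.34 over the 12 mice. Ces2a and Ces2b had r = 0.62, or 0.40 over the 12 mice, and Ces2a and Ces1d had 0.63, or 0.71. The same split is seen in IKO 2, which was among the 3 highest for Ces2a (910 FPKM) and Ces2b (48.0 FPKM) and the lowest or next to lowest IKO mouse for Ces2c and Ces2e. These values describe the 14 libraries, whose members share depth and composition, and carry no test.

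The genes outside the family whose variation among mice was most like that of Ces2e, the highest Ces2 member in WT mice, were Tmco1 (r = 0.99), Ero1l, Saraf, Derl1 and Neo1 (r = 0.98 each). All 5 kept r of 0.94 to 0.97 over the 12 mice. Tmco1 is a calcium channel, Ero1l an oxidase and Derl1 a degradation factor of the endoplasmic reticulum, where Saraf also resides. Neo1 is not counted with them, and a shared place or function of the 5 genes was not tested. For Ces1f, the highest Ces1 member, the nearest were Gm29684, Nceh1, a cholesteryl ester hydrolase, and Sval1 (r = 0.87 each), then Zdhhc15 (r = 0.86) and Tmem107 (r = 0.85). These values were 0.47 to 0.61 over the 12 mice.

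Whether Ces2e and Ces1f followed Ncor1, Nr1i2, Ppara or the mitochondrial share was examined within each genotype, which gave 16 relations over 7 mice each. Of these, 0 passed after adjustment (exact permutation test, smallest adjusted p = 0.224). The strongest was that of Ces1f with the mitochondrial share in IKO mice, with Pearson's r = -0.93 (exact permutation p = 0.0149, adjusted p = 0.224) and Spearman's rho = -0.79 (exact permutation p = 0.0480, adjusted p = 0.352). It rested on IKO 1 and IKO 4, without which r was -0.37. Ces2e in IKO mice had r = -0.91 with the same share (exact permutation p = 0.0865, adjusted p = 0.272; rho = -0.39, exact permutation p = 0.396, adjusted p = 0.791), and r was 0.66 without these 2 mice. In WT mice Ces2e had r = -0.69 with this share (exact permutation p = 0.0421, adjusted p = 0.224), and r was -0.16 without WT 2 and WT 3. For Ncor1 itself r was 0.65 with Ces2e and 0.17 with Ces1f in WT mice, and 0.32 and 0.06 in IKO mice (exact permutation p from 0.119 to 0.877, adjusted p from 0.272 to 0.900). The corresponding rho values were 0.71, 0.04, -0.07 and 0.14 (adjusted p from 0.352 to 0.963, exact permutation test), and r without the 2 mice farthest in Ncor1 was 0.49, 0.80, 0.21 and 0.25. For Nr1i2 r was -0.29 with Ces2e and -0.42 with Ces1f in WT mice, and -0.75 and -0.64 in IKO mice. The exact permutation p was 0.0371 to 0.548 (adjusted p 0.224 to 0.780). Without the 2 mice farthest in Nr1i2, r was -0.09, -0.69, -0.31 and 0.58. For Ppara r was 0.53, -0.06, -0.25 and -0.29 in the same order (exact permutation p 0.215 to 0.900, adjusted p 0.430 to 0.900).

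Of the 10 other carboxylesterase genes in the table, 2 were tested. Ces2d-ps, the pseudogene next to Ces2c, rose from 2.05 ± 0.998 to 7.31 ± 4.10 CPM (SD, n = 7 each), a log2 fold change of 1.83 (SE 0.47, adjusted p = 0.0295). It shares 61 of the 2148 distinct 150-base windows and 734 of the 2248 distinct 50-base windows of Ces2c, and the part of reads from Ces2c in its counts was not tested. Its call was lost without WT 1, WT 7, IKO 1, IKO 5 or IKO 7, where the log2 fold change was 1.65 to 1.77. Ces1c, the secreted esterase of mouse plasma, had a log2 fold change of -0.26 (SE 0.30, adjusted p = 0.582). Ces1a, Ces4a and Ces5a had 0 counts in all 14 libraries, which allows up to 3 counts in each (counting error only), and Ces1b, Ces1h, Ces2h, Ces3a and Ces3b had 1 to 91 counts per genotype.

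Genes beside the clusters, within 500 kb of the outermost members, allow the members to be set in their place. Of 26 such genes around Ces2, 1 rose and 1 fell, with a median log2 fold change of -0.15. Pdp2, a phosphatase of the pyruvate dehydrogenase complex, rose by 1.09 (SE 0.29, adjusted p = 0.0353, past the threshold in 14 of 25 alternative fits). Nae1, a subunit of the NEDD8-activating enzyme, fell by 0.85 (SE 0.24, adjusted p = 0.0420, in 9 of 25). Gm6831 and Gm8798, pseudogenes that lie among the Ces2 members and share 50-base windows with them, had log2 fold changes of 1.38 (SE 0.61, adjusted p = 0.143) and 0.77 (SE 0.40, adjusted p = 0.204). Gm8798 also shares 29 of the 150-base windows of Ces2c. Of the 4 genes tested around Ces1, 0 passed the test and 2 had an unadjusted p under 0.05, with a median of -0.71. Such an unadjusted p was found for 4213 of all 13846 genes tested. The 4 genes summed to 72.0 CPM in WT 4, the library with high smooth muscle markers. The WT median of this sum was 7.96 CPM and the IKO range 4.04 to 11.2 CPM.

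**Figure D5:**
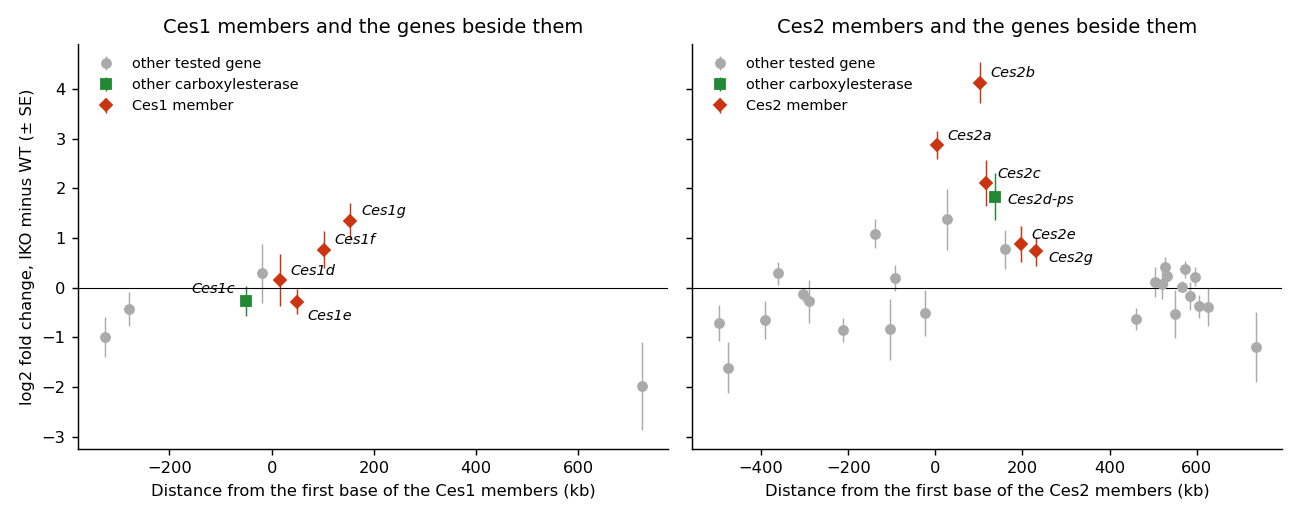
Log2 fold change (IKO minus WT, with SE) against the distance of each gene's midpoint from the first base of the Ces1 members (left) or the Ces2 members (right), in kb. Members are red, other carboxylesterases green and the remaining tested genes within 500 kb grey. The 3 Ces2 members above 2 and Ces2d-ps lie within the first 150 kb of the cluster, and Ces2e and Ces2g at its far end are at 0.88 and 0.73.

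Other enzymes act on the same kinds of substrate as carboxylesterases. Of 16 neutral lipid hydrolases tested, 3 rose and 0 fell, with a median log2 fold change of 0.10. Pnpla2, adipose triglyceride lipase, rose from 125.2 ± 32.6 to 260.4 ± 67.8 CPM (SD, n = 7 each, log2 fold change 1.06, SE 0.20, adjusted p = 0.00804). Pnliprp2, a pancreatic lipase-related protein, rose by 1.38 (SE 0.27, adjusted p = 0.00928) and Abhd6, a monoacylglycerol hydrolase, by 0.84 (SE 0.21, adjusted p = 0.0244, past the threshold in 20 of 25 alternative fits). The defining members Lipe, hormone-sensitive lipase, and Mgll, monoacylglycerol lipase, did not pass (0.27, SE 0.32, adjusted p = 0.583, and 0.30, SE 0.54, adjusted p = 0.731).

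Of 13 xenobiotic and related hydrolases tested, 2 rose and 1 fell, with a median of -0.07. Esd, an esterase that acts on S-formylglutathione, rose by 0.71 (SE 0.16, adjusted p = 0.0175) and Cmbl, which activates ester prodrugs, by 0.60 (SE 0.18, adjusted p = 0.0475, past the threshold in 8 of 25 alternative fits). Bche, butyrylcholinesterase, fell by 2.18 (SE 0.41, adjusted p = 0.0071), from 97.1 ± 46.0 to 21.4 ± 9.32 CPM (SD, n = 7 each). Aadac, a microsomal esterase of liver and intestine, had a log2 fold change of -0.02 (SE 0.46, adjusted p = 0.984).

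Genes known to respond to PXR and CAR, as some carboxylesterases do, were followed as a list. Of 17 tested, 8 rose and 0 fell, and all 17 had a positive log2 fold change, with a median of 1.42. Of all 13846 genes tested, 6020 had a positive log2 fold change. As the list was chosen with earlier results known, nothing is read from these counts, and a part of PXR or CAR was not tested. The cytochromes P450 among them rose furthest, Cyp3a11 by 4.61 (SE 0.69, adjusted p = 0.00179), Cyp2c55 by 4.45 (SE 0.53, adjusted p = 0.000267), Cyp2c66 by 4.38 (SE 0.73, adjusted p = 0.00375) and Cyp3a25 by 2.76 (SE 0.48, adjusted p = 0.0049). Aldh1a1, a retinal dehydrogenase, rose by 1.76, Alas1, the first enzyme of heme synthesis, by 1.55, and the glutathione transferases Gsta1 and Gstm3 by 2.01 and 1.59 (adjusted p 0.000439 to 0.0420, the last past the threshold in 12 of 25 alternative fits). Cyp2b10, the usual marker of CAR, did not pass (0.41, SE 0.63, adjusted p = 0.687).

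Of 15 regulators tested, 2 rose and 2 fell, Ncor1 among the latter. Ppara, the fatty acid receptor, rose by 1.55 (SE 0.40, adjusted p = 0.0285, in 18 of 25 alternative fits) and Ppard by 0.74 (SE 0.17, adjusted p = 0.0192). Nr1i2 had a log2 fold change of 0.73 (SE 0.24, adjusted p = 0.0675), Nr1i3 of -0.63 (SE 0.52, adjusted p = 0.422) and Hnf4a, a main factor of enterocyte genes, of 0.47 (SE 0.19, adjusted p = 0.107).

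Of 10 genes that build or coat triacylglycerol particles, all with a positive log2 fold change (6020 of all 13846 genes tested), 2 rose. They were the lipid droplet proteins Plin2, by 1.89 (SE 0.18, adjusted p = 7.6e-05), and Plin3, by 1.09 (SE 0.22, adjusted p = 0.00959). Mttp, which loads lipid onto apolipoprotein B, did not pass (0.99, SE 0.48, adjusted p = 0.177).

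Cells other than enterocytes were followed by their markers, since liver and fat also hold carboxylesterases. The 6 hepatocyte markers summed to 1.41 to 4.27 CPM in WT and 2.60 to 6.84 CPM in IKO mice, and Alb had 2 counts in each genotype. The 6 adipocyte markers summed to 28.0 to 173 CPM in WT and 85.8 to 205 CPM in IKO mice, with 0 of 3 tested past the threshold and Adipoq at no more than 5.26 CPM, while the part of adipocytes in the Ces1 values was not tested. Of 10 enterocyte markers 1 rose, Fabp1, by 2.17 (SE 0.55, adjusted p = 0.0277, past the threshold in 18 of 25 alternative fits), which is also the 1 of 4 tested markers of the proximal intestine that rose. Of 5 ileal markers 0 passed. Of 6 crypt, 6 goblet, 6 Paneth and 6 enteroendocrine markers 0 passed, nor did any of the smooth muscle, macrophage, lymphocyte, endothelial or fibroblast markers. Cela1, the 1 exocrine pancreas marker tested, rose by 1.19 (SE 0.20, adjusted p = 0.00438), with the list at 4.84 to 8.56 CPM in WT and 7.59 to 18.8 CPM in IKO mice. The part of any of these in the carboxylesterase values was not tested.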

How the data were processed

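RNA of the ileum mucosa from 7 WT and 7 IKO mice was sequenced by the study as paired reads of 150 bases. According to the submitters' processing notes, reads were aligned with HISAT2 2.0.5 to mm10, counted with featureCounts 1.5.0-p3 and compared with DESeq2 1.16.1. The deposited counts are raw whole numbers for each gene. The deposited FPKM equal these counts per kilobase of gene length divided by a size factor of the library and a constant. Strandedness and the treatment of reads with several matches are not given in the sources used here. The depth was 14749669 to 21557468 counts per library, and 0 columns of per-sample values were left unmapped.

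Genotypes came from the sample titles, and KO in the column names was taken to mean IKO. In R 4.3.3, filterByExpr kept 13846 genes, which edgeR 4.0.16 compared by genotype alone (TMM scaling, glmQLFit and glmQLFTest). P-values were adjusted over these genes by Benjamini-Hochberg, and the threshold was 0.05. The SE is the size of the log2 fold change over the square root of F. Log2 levels use a prior count of 2. The method was tested on simulated counts. Exact permutation tests were two-sided (scipy 1.17.1). The study calls the genotypes littermates, but no source ties a number in the titles to a litter or day, so the 7 numbers were not treated as pairs, and p-values measure the spread between these mice. No pair of libraries was a duplicate. Sequence was read from RefSeq promoter windows and GENCODE transcripts of GRCm38.

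The 10 members and all lists were chosen with earlier results of these data known, so no list carries a test of its own. From each list, its defining genes and those past the threshold are named, except as said next, besides all members, and for Ces2e and Ces1f the 5 most alike genes. Results for some single genes past the threshold are not reported here. Gm6831 and Gm8798 were named after their values were seen. Alternatives were DESeq2 1.42.0, RLE scaling, no filter, at least 10 counts in every library, limma 3.58.1 on log2(FPKM + 1) and log2(FPKM + 0.1) for genes above 0.5 FPKM in at least 7 libraries and without that filter, mitochondrial genes removed, the sample number as a block, WT 3 and IKO 4 left out, and each library left out in turn. Leaving out WT 3, WT 4 and IKO 4 together was added after the data were seen.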

Additional observations from a re-analysis of the deposited data

Results flagged for a closer look

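In 1 of the 26 groups of 7 mice examined for a mouse far from the others, 1 mouse stood apart. Ces1g was 3.77 FPKM in IKO 3 against 1.93 FPKM in the next highest IKO mouse, a gap of 0.582 of the whole range of the group, above Dixon's 95% limit for 7 samples. Chance flags about 1 in 20 groups, or 1.3 of 26. Without IKO 3 the log2 fold change of Ces1g was 1.01 in place of 1.35 and was not past the threshold.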

How the results depend on the processing

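The log2 fold changes of Ces2a, Ces2b and Ces2c kept their direction and stayed past the threshold in all 25 alternatives. The alternatives refit the same libraries and the contrast on which the members were chosen. They describe the dependence on processing and are no test of the members. The number of members past it was 4 in the main fit and 3 to 5 in the alternatives, with 3 to 5 also when 1 mouse was left out. Ces1d, not past the threshold in any fit, turned sign in 4 of them (-0.017 without WT 1, -0.0039 without WT 5, -0.018 without WT 6 and -0.013 without IKO 1, in a range of -0.018 to 0.56 with 1 mouse left out). Of all genes, 1200 were past the threshold in the main fit, 2578 with DESeq2, 508 without a filter, 614 with limma on log2(FPKM + 1) without a filter, 648 without WT 3 and IKO 4 and 433 without WT 3, WT 4 and IKO 4. Leaving out 1 mouse gave 515 to 1371, with 746 without WT 4, 600 without WT 7, 526 without IKO 1, 728 without IKO 2, 515 without IKO 5 and 789 without IKO 7. Of these changes the cause was not tested, beyond fewer mice or more genes tested. Higher and lower calls were 607 and 593 in the main fit and 708 and 328 with limma on log2(FPKM + 1).

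The numbers in the titles did not pair the mice (r of deviations -0.31 to 0.23 over the 7 numbers, 1 of 7 mice closest to its own number). With the number as a replicate block, 362 genes and 3 members were past the threshold, Ces1g no longer (log2 fold change 1.201). The log2 ratio of the summed Ces2 level was 1.76 and that of Ces1 0.62, and both moved by less than the spread between mice in every alternative. In the order of levels in WT mice, 4 of 9 neighbouring pairs passed, and 0 with any 1 WT mouse left out. The test then has 6 mice and a larger smallest possible p, so nothing is read from this loss. Ces2f had 1 to 12 counts per WT library and 1 to 21 per IKO library. It was not tested in the main fit, so no statement on a difference is made for it.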
